A study of Homo sapiens with 6 samples.

Results

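The unfolded protein response and the integrated stress response were followed through 40 genes in DMS53 cells, an established small cell lung cancer (SCLC) line of neuroendocrine character. The genes were taken by name, as members of these pathways, and read from the 62696 genes in the count files. All 40 were expressed highly enough to enter the test, with 17307 genes tested in all. ATF6/XBP1 targets made up 19 of them (9 endoplasmic reticulum (ER) chaperones and co-chaperones, 6 lectin chaperones and disulfide isomerases, and 4 genes of ER-associated degradation), and 5 encode sensors or transcription factors. Another 8 are stress effectors of the ATF4 branch, and the last 8 are amino acid and tRNA charging genes under ATF4.

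Control cells carried the empty lentiviral vector pLenti-C-mGFP-P2A-Puro, and OC2-OE cells a lentiviral clone of the ONECUT2 (OC2) open reading frame tagged with mGFP. Both were selected with puromycin, so the vector, its selection marker and the selection were common to the groups. RNA-Seq of poly(A) RNA gave 3 libraries per group, numbered 1 to 3, which the study describes as independent experiments. The p-values below measure the spread between these libraries of 1 cell line, and whether they came from separate transductions is not given in the sources used here.

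When unfolded proteins build up in the ER, 3 membrane sensors respond. ATF6 is cut to release a transcription factor, IRE1 (encoded by ERN1) splices XBP1 mRNA so that an active factor is made, and PERK (encoded by EIF2AK3) phosphorylates eIF2 to slow protein synthesis. ATF6 and XBP1 act on genes of folding and degradation. Phosphorylation of eIF2 also favours translation of ATF4, which acts on genes of amino acid supply, tRNA charging and stress signalling. The same phosphorylation is carried out by kinases that sense amino acid shortage, haem or double-stranded RNA, which is why this arm is called the integrated stress response. Much of the control by these pathways is on splicing, cleavage, phosphorylation and translation, none of which gene counts measure.

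The libraries held 16533284 to 19099337 counts in control and 17060625 to 18858284 in OC2-OE cells. ONECUT2 itself had 394 to 465 counts in control and 68853 to 74031 in OC2-OE libraries. All 7 neuroendocrine markers were expressed, and 6 of them were lower and 1 (CHGA) higher in OC2-OE cells at the threshold used below. Of 10 markers of leukocytes, fibroblasts and endothelial cells, 3 could be tested, 1 higher (COL1A1), 1 lower (CDH5) and 1 not called (PECAM1). The CDH5 call rests on few counts, 52 over the 3 control libraries and 3 over the 3 OC2-OE libraries. CD3E had 0 counts in all 6 libraries, and these 10 markers together took 0.0023% to 0.0027% of the counts in control and 0.0031% to 0.0033% in OC2-OE libraries. Mitochondrial genes took 2.28% to 2.47% and 2.88% to 2.90% of counts. The part of these differences in the results below was not tested. In bulk RNA, a gene lowered in each cell and a smaller share of the cells that express it cannot be told apart.

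In OC2-OE cells, 29 of the 40 genes were higher than in control, 2 were lower (XBP1 and SHMT2) and 9 did not pass the threshold, a p under 0.001 in the quasi-likelihood test of edgeR after Benjamini-Hochberg adjustment over all genes tested. The same threshold was passed by 9776 genes, or 56.5% of those tested, with 27.8% higher and 28.7% lower, so a change as such was common in these libraries. The median log2 fold change (OC2-OE over control) was 0.42 over the 40 genes and 0.01 over all genes tested. In 33 of the 40, the groups did not overlap, with 31 higher and 2 lower, and this held for 73.2% of all genes. A called change of at least 2-fold was found in 4 of the 40, which were DDIT3, TRIB3, SESN2 and XBP1, and in 17.3% of all genes. Together the 40 genes took 1.33% to 1.34% of the counts in control and 1.76% to 1.78% in OC2-OE libraries.

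**Figure D1:**
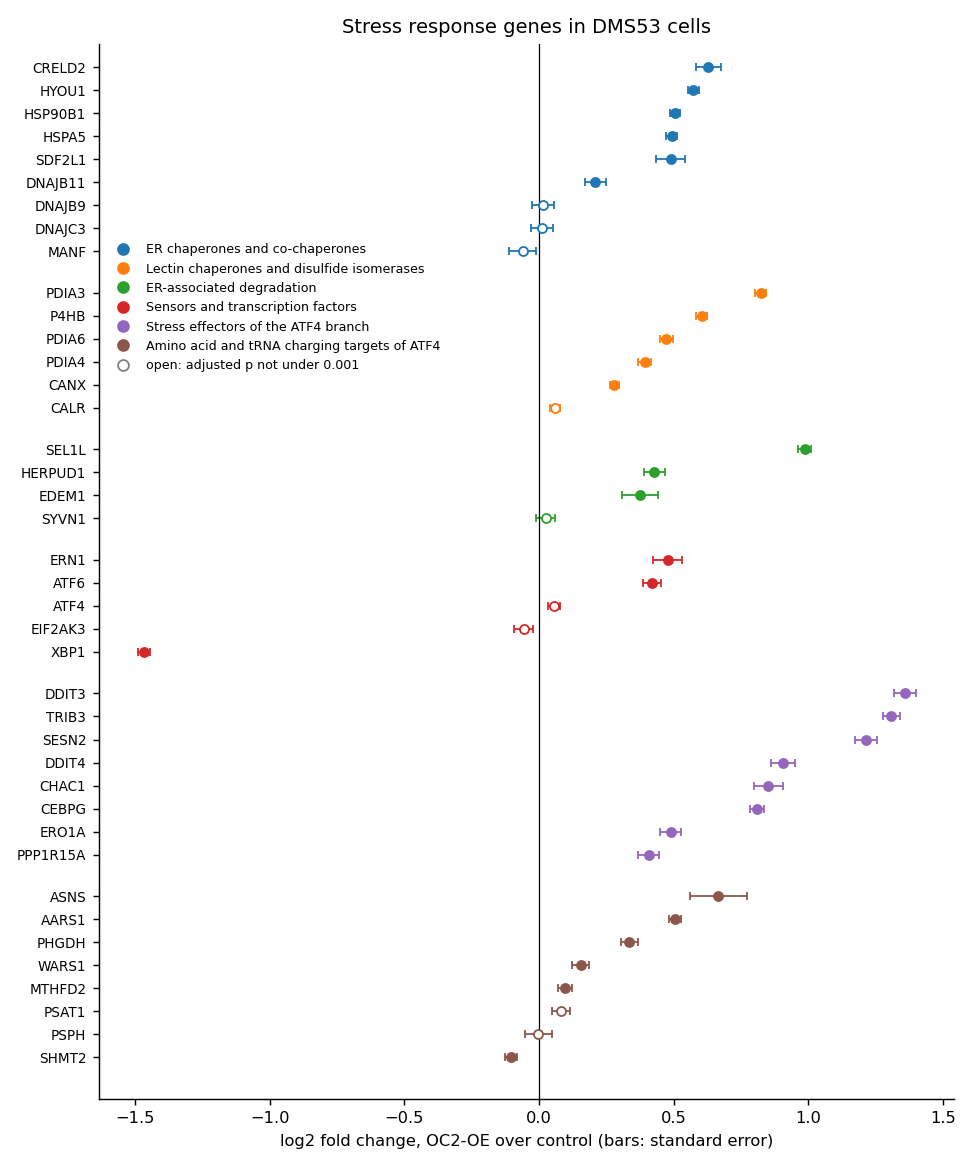
Log2 fold change of each of the 40 genes, OC2-OE over control, coloured by role, with bars for the standard error; filled points had an adjusted p under 0.001 and open points did not. XBP1 lies apart at -1.47, all 8 stress effectors of the ATF4 branch lie between 0.41 and 1.36, and the 8 amino acid and tRNA charging genes lie between -0.10 and 0.67.

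The promoters of these genes are known for short shared elements, printed here because they are the letters through which ATF6, XBP1 and ATF4 are known to act. Windows of 250 bases before to 50 after the start of each gene came from RefSeq on GRCh38.p14, and 37 of the 40 genes were matched (PDIA3, PSPH and SHMT2 were not). Both strands were searched for exact letters. The ER stress element ERSE was searched as CCAAT, any 9 bases and CCACG, and ERSE-II as ATTGG, any 1 base and CCACG. ERSE was found in 6 of 18 matched ATF6/XBP1 targets and in XBP1 itself, against 25 of 27305 genes with a window (0.0916%) and 0.0769% of all windows. Because promoters of these genes are already known for such elements, these rates are a description and not a test. The sites follow, each 5′ to 3′ along the element, with the fixed letters in capitals.
HSPA5, chr9:125241391-125241409, minus strand: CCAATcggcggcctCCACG
HSP90B1, chr12:103930216-103930234, plus strand: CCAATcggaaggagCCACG
HSP90B1, chr12:103930321-103930339, minus strand: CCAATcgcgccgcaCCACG
CRELD2, chr22:49918554-49918572, minus strand: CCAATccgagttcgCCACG
CALR, chr19:12938384-12938402, minus strand: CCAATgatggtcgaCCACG
CANX, chr5:179698778-179698796, plus strand: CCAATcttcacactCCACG
PDIA6, chr2:10812853-10812871, minus strand: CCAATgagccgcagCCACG
XBP1, chr22:28800603-28800621, minus strand: CCAATcgcggagggCCACG
The 8 sites share their ends and differ in the bases between.

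ERSE-II was found in 3 of the 18 matched targets, against 0.0696% of genes and 0.0541% of windows.
HYOU1, chr11:119057380-119057390, plus strand: ATTGGaCCACG
HYOU1, chr11:119057274-119057284, plus strand: ATTGGaCCACG
SDF2L1, chr22:21642114-21642124, minus strand: ATTGGtCCACG
HERPUD1, chr16:56932025-56932035, plus strand: ATTGGgCCACG
No gene had both elements, so 9 of the 18 targets held one or the other. The core of the XBP1 element UPRE, TGACGTGG, was found in HYOU1 alone of the 37, overlapping its farther ERSE-II, and in 0.927% of genes and 0.729% of windows.

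The element of the ATF4 branch, CARE, was searched as TGATG, any 1 base and AA, and was far more common, in 4.46% of genes and 3.62% of windows. It was found in 2 of 8 stress effectors, 2 of 6 matched amino acid and tRNA charging genes, and HERPUD1.
CHAC1, chr15:40953262-40953269, minus strand: TGATGcAA
CEBPG, chr19:33374071-33374078, plus strand: TGATGcAA
ASNS, chr7:97872469-97872476, minus strand: TGATGaAA
AARS1, chr16:70289686-70289693, plus strand: TGATGcAA
HERPUD1, chr16:56931966-56931973, minus strand: TGATGcAA
Of the 18 sites found in all, 9 lie outside the span that the counts' annotation gives the gene, and 9 lie within it, since that annotation also holds transcripts that start farther upstream. A match is a description of letters and not of binding, and the absence of a match says only that these letters are not in the window.

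The ER chaperones hold and fold proteins in the ER lumen, and 6 of 9 rose, with a median log2 fold change of 0.49. HSPA5 encodes BiP, the Hsp70 chaperone of the ER that also binds the sensors, and lies on chromosome 9 from 125234853 to 125241382 (GRCh38). Its ERSE lies just before the gene, in this stretch of 111 bases on the minus strand, chr9:125241383-125241493.
HSPA5: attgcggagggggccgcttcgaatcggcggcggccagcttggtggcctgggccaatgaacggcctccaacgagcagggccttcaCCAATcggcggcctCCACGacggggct
HSPA5 was at 887, 880 and 869 CPM (counts scaled to a common library total, with TMM normalization) in the 3 control libraries and at 1241, 1245 and 1223 in the 3 OC2-OE libraries. Every OC2-OE library was above every control library, and the means were 879 ± 9.05 and 1236 ± 11.9 CPM (SD, n = 3), which is 0.49 in log2 units (standard error, SE, 0.019, adjusted p = 6.55e-48 by edgeR).

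HSP90B1, which encodes the Hsp90 chaperone GRP94, rose from 1853 ± 37.1 to 2629 ± 64.9 CPM (SD, n = 3), which is 0.50. in log2 units HYOU1, an Hsp110-type partner that exchanges nucleotide on BiP, was at 657, 647 and 646 CPM in control and at 966, 968 and 965 in OC2-OE libraries. These 3 OC2-OE values lay closer together than those of most members, and the log2 fold change was 0.57 (SE 0.020). CRELD2, an ER protein that is induced by ER stress, had the largest change of the 9 (0.63, from 46.2 ± 1.49 to 71.3 ± 0.467 CPM, SD, n = 3). SDF2L1, a component of BiP complexes, rose by 0.49 in log2 units, from 34.4 to 48.1 CPM.

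The co-chaperones of the J-domain family, which stimulate BiP, did not move together. DNAJB11 rose by 0.21 in log2 units (SE 0.039), from 77.5 to 89.5 CPM. DNAJB9 was at 75.3 and 76.3 CPM and DNAJC3 at 73.0 and 73.6 CPM in control and OC2-OE cells, with log2 fold changes of 0.02 and 0.01 (SE 0.041 for both). MANF, a secreted factor that binds BiP, was at 48.1 and 46.2 CPM. For these 3 genes the groups overlapped, and none passed the threshold (adjusted p = 0.73, 0.83 and 0.276 by the same edgeR test).

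The lectin chaperones CALR and CANX hold glycoproteins during folding, and the disulfide isomerases form and rearrange disulfide bonds. Of these 6 genes 5 rose, with a median log2 fold change of 0.43. In all 6 every OC2-OE library was above every control library, which also held for 6318 of the 17307 genes tested. In either direction, the groups did not overlap in 73.2% of all genes. PDIA3, the isomerase that works with the lectin chaperones, was at 627, 636 and 614 CPM in control and at 1115, 1107 and 1099 CPM in OC2-OE libraries. The gap between the groups was far wider than the spread within either, and the log2 fold change was 0.82 (SE 0.020, adjusted p = 7.12e-69, edgeR). P4HB, the disulfide isomerase PDI, rose from 942 ± 4.56 to 1432 ± 25.3 CPM (SD, n = 3), which is 0.60. in log2 units PDIA6 and PDIA4 rose by 0.47 and 0.39 on the log2 scale.

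CANX, the membrane-bound lectin, rose by 0.28 in log2 units, from 2221 ± 6.10 to 2697 ± 26.0 CPM (SD, n = 3). CALR, the soluble lectin, was at 1331, 1360 and 1306 CPM in control and at 1389, 1410 and 1365 CPM in OC2-OE libraries. The groups did not overlap, but the log2 fold change of 0.06 (SE 0.019) did not pass the threshold (adjusted p = 0.00392 by edgeR). It passed under 5 alternatives, among them normalization by library size only (0.11, adjusted p = 1.19e-07, edgeR) and without control replicate 2 (0.07, adjusted p = 0.00071, edgeR).

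In ER-associated degradation, misfolded proteins are recognised, drawn out of the ER and marked with ubiquitin, and 3 of the 4 genes rose, with a median log2 fold change of 0.40. SEL1L, the scaffold of the ubiquitin ligase complex, was at 229, 219 and 218 CPM in control and at 436, 441 and 443 CPM in OC2-OE libraries. It had the largest change of the 19 ATF6/XBP1 targets, a 1.98-fold rise (log2 fold change 0.99, SE 0.025, adjusted p = 6.86e-68, edgeR), and none of the 19 reached 2-fold in this fit. SEL1L passed 2-fold with normalization by library size only (1.04 in log2 units) or upper quartile (1.03) and without control replicate 1 (1.01). SYVN1, which encodes the ligase HRD1 that SEL1L holds, was at 122, 123 and 118 CPM in control and at 119, 125 and 125 CPM in OC2-OE libraries. The groups overlapped, with a log2 fold change of 0.02 (SE 0.034), and 3.51% of SYVN1 exon bases are shared with a neighbouring gene.

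HERPUD1, a membrane protein that gathers the degradation complex, rose by 0.43 in log2 units, from 76.6 ± 1.65 to 103 ± 1.88 CPM (SD, n = 3). EDEM1, a lectin-like protein that leads glycoproteins to degradation, rose by 0.37, from 1162 counts over the 3 control libraries to 1593 over the 3 OC2-OE libraries. Over the 19 targets, 14 were higher, none lower and 5 not called, and the median log2 fold change was 0.43. Among the 18 with a promoter window, 8 of the 9 with an ERSE or ERSE-II were higher, with changes from 0.06 to 0.63 and a median of 0.49. The 9 with neither ran wider, from -0.06 (MANF) to 0.99 (SEL1L), with 5 higher and a median of 0.21. This was counted as a description and was not tested. XBP1, which also holds an ERSE, was lower, but it is not among the 19 and is left out of this count.

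**Figure D2:**
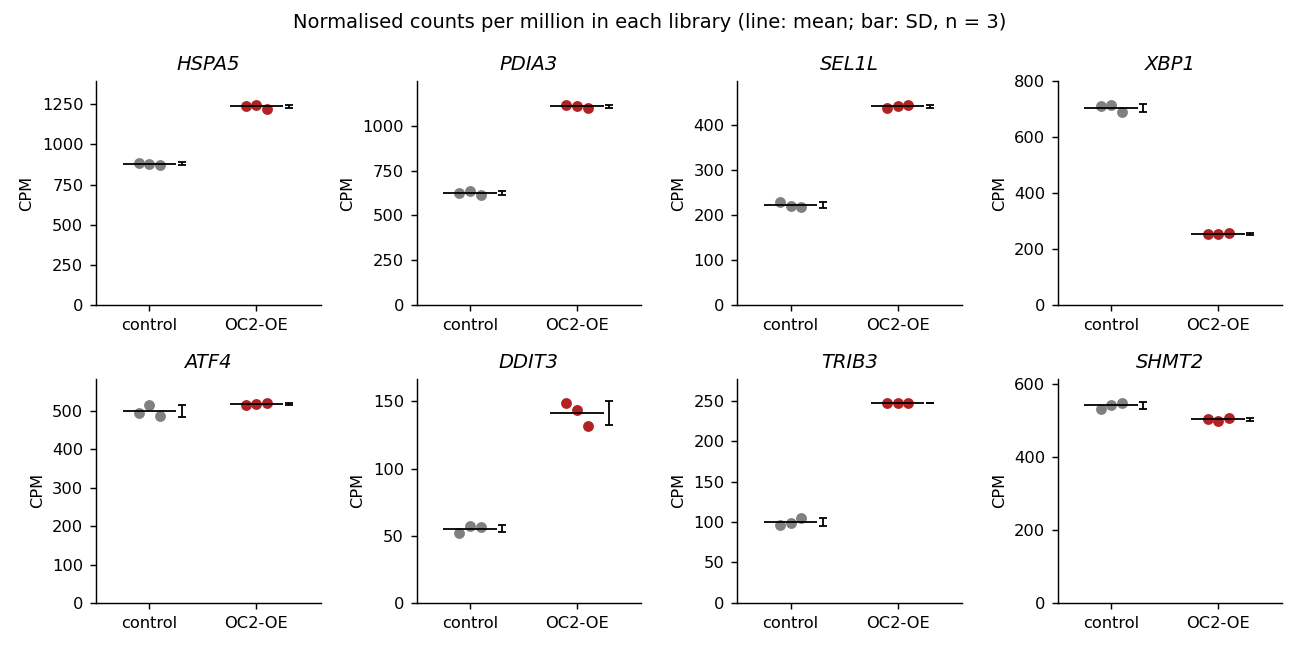
Normalised CPM of 8 genes in each of the 6 libraries, on linear axes that start at 0, with a line for the group mean and a bar for the SD (n = 3). The groups lie apart for HSPA5, PDIA3, SEL1L, XBP1, DDIT3, TRIB3 and SHMT2, though narrowly for SHMT2, and for ATF4 they overlap.

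The 5 sensors and transcription factors had a median log2 fold change of 0.06, with 2 higher, 1 lower and 2 not called. XBP1, on chromosome 22 from 28794555 to 28800597, was the gene of the 40 with the largest change in either direction. Its ERSE lies within the 122 bases before the gene, on the minus strand, chr22:28800598-28800719. ERSE was also found in 3 of the 9 ER chaperone and co-chaperone genes (HSPA5, HSP90B1 and CRELD2).
XBP1: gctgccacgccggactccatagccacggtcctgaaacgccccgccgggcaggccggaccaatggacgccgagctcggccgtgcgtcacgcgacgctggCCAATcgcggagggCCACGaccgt
XBP1 was at 711, 716 and 689 CPM in control and at 254, 253 and 259 CPM in OC2-OE libraries. No library of the OC2-OE group came near the control values, and the gene was 2.76-fold lower, with a log2 fold change of -1.47 (SE 0.023, adjusted p = 7.06e-90 by edgeR). It stayed between -1.485 and -1.415 under all 15 alternatives to the fit. The counts sum all exons of the gene, so the spliced and unspliced forms of XBP1 mRNA cannot be told apart.

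Of the other 4, ATF6 and ERN1 were called higher, and EIF2AK3 and ATF4 were not called. ATF6 rose from 111 ± 3.28 to 148 ± 1.90 CPM (SD, n = 3), which is 0.42. in log2 units ERN1, which encodes the kinase and endonuclease IRE1 that splices XBP1 mRNA, rose by 0.48 in log2 units (SE 0.055), from 31.5 to 44.0 CPM. EIF2AK3, which encodes PERK, was at 106 ± 2.19 and 102 ± 3.32 CPM (SD, n = 3), with groups that overlapped and a log2 fold change of -0.06 (SE 0.036). ATF4 was at 496, 516 and 487 CPM in control and at 516, 520 and 522 CPM in OC2-OE libraries. Control replicate 2 lay within the range of the OC2-OE group, and the log2 fold change of 0.06 (SE 0.022) did not pass the threshold (adjusted p = 0.02, edgeR). It passed with normalization by library size only (0.11, adjusted p = 9.34e-06, edgeR) and by upper quartile (0.10, adjusted p = 3.45e-05, edgeR).

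All 8 stress effectors of the ATF4 branch rose, with a median log2 fold change of 0.88 and 3 at 2-fold or more, and their share of the counts went from 0.0575% to 0.0585% in control to 0.114% to 0.116% in OC2-OE libraries. DDIT3 encodes CHOP, a transcription factor tied to death under long stress. It was at 52.0, 57.4 and 56.6 CPM in control and at 149, 144 and 132 CPM in OC2-OE libraries. The OC2-OE values were spread more than those of most members, yet all 3 were above 2 times the highest control value, and the log2 fold change was 1.36 (SE 0.041, adjusted p = 1.7e-47, edgeR). Of its exon bases, 8.03% are shared with another gene on the same strand.

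TRIB3, a pseudokinase that CHOP and ATF4 induce and that feeds back on them, was at 95.9, 99.1 and 105 CPM in control and at 247, 247 and 247 CPM in OC2-OE libraries. This was a 2.48-fold rise, with almost no spread in OC2-OE cells (SD 0.431). SESN2, a leucine sensor that restrains mTORC1, was at 51.9, 48.7 and 51.1 CPM in control and at 120, 113 and 119 CPM in OC2-OE libraries, a log2 fold change of 1.21 (SE 0.041). DDIT4, another inhibitor of mTORC1 signalling, rose from 42.6 ± 0.379 to 79.8 ± 2.35 CPM (SD, n = 3), which is 0.91. in log2 units

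CHAC1, which breaks down glutathione, rose by 0.85 in log2 units, from 31.3 to 56.4 CPM. CEBPG, a bZIP partner of ATF4, rose by 0.81, from 171 ± 5.83 to 300.3 ± 0.625 CPM (SD, n = 3). ERO1A, the oxidase that recharges the disulfide isomerases, rose by 0.49. PPP1R15A encodes GADD34, the phosphatase subunit that reverses eIF2 phosphorylation, and had the smallest rise of the 8, 0.41 (SE 0.039), from 70.9 to 94.0 CPM.

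The 8 amino acid and tRNA charging genes, which are also under ATF4, had a median log2 fold change of 0.13, with 5 higher, 1 lower and 2 not called, against a median of 0.43 and 14 of 19 higher for the ATF6/XBP1 targets. No test was made of one list against the other, since the genes of a list are not replicates. The further list of ATF4 targets given below, which includes amino acid transporters, had a median of 0.51. ASNS, asparagine synthetase, was at 7.01, 7.83 and 8.24 CPM in control and at 11.6, 13.9 and 11.0 CPM in OC2-OE libraries. It was the lowest of the 40 genes, with 396 and 665 counts over the 3 libraries of each group, and its log2 fold change of 0.67 had the widest standard error (0.11). Its count is uncertain, because 49.3% of its exon bases are shared with an overlapping gene on the same strand and the pseudogene ASNSP1 had 48.3% as many counts.

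The 5 genes of serine and one-carbon metabolism had log2 fold changes between -0.10 and 0.33. PHGDH, the first enzyme of serine synthesis, rose by 0.33 in log2 units, from 121 ± 2.06 to 153 ± 1.13 CPM (SD, n = 3). PSAT1, the next enzyme, was at 117 and 124 CPM, with a log2 fold change of 0.08 that did not pass (adjusted p = 0.0269 by edgeR) but passed with normalization by library size only (adjusted p = 0.000299, edgeR) or upper quartile (adjusted p = 0.000676, edgeR). PSPH, the last enzyme of the pathway, was at 45.9 and 45.8 CPM, a log2 fold change of 0.00 (SE 0.051). A pseudogene of PSPH had 13.2% as many counts.

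SHMT2, the mitochondrial enzyme that takes a carbon from serine, was at 533, 543 and 549 CPM in control and at 505, 501 and 508 CPM in OC2-OE libraries. The groups did not overlap, and the log2 fold change was -0.10 (SE 0.022, adjusted p = 1.25e-05 by edgeR). This call was lost with normalization by library size only (-0.05, adjusted p = 0.022, edgeR) or upper quartile (-0.06, adjusted p = 0.00864, edgeR). MTHFD2, which acts after SHMT2 in the mitochondrial folate pathway, was higher by 0.10 (adjusted p = 0.000665, edgeR), a call that was lost without OC2-OE replicate 2 (0.08, adjusted p = 0.0218, edgeR), without 3 other libraries left out singly (control replicates 2 and 3 and OC2-OE replicate 1), with DESeq2 and without a filter on low counts. The tRNA synthetases AARS1 and WARS1, for alanine and tryptophan, rose by 0.51 and 0.15 on the log2 scale, AARS1 from 447 ± 11.1 to 634 ± 5.05 CPM (SD, n = 3).

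Levels of different genes were compared as CPM per kilobase of exon. In control cells CALR was the highest of the 40 at 476, followed by XBP1 at 233 and ATF4 at 191, and the lowest were EDEM1 at 3.32, ERN1 at 1.65 and ASNS at 1.57. In OC2-OE cells XBP1 was at 84.3, below HSP90B1 at 201, ATF4 at 199, CANX at 196 and HSPA5 at 189. DDIT3, at 42.4 in control and 108 in OC2-OE cells, passed above XBP1. The length is that of all exons of the gene in the annotation, so a gene with many long isoforms reads lower on this scale.

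**Figure D3:**
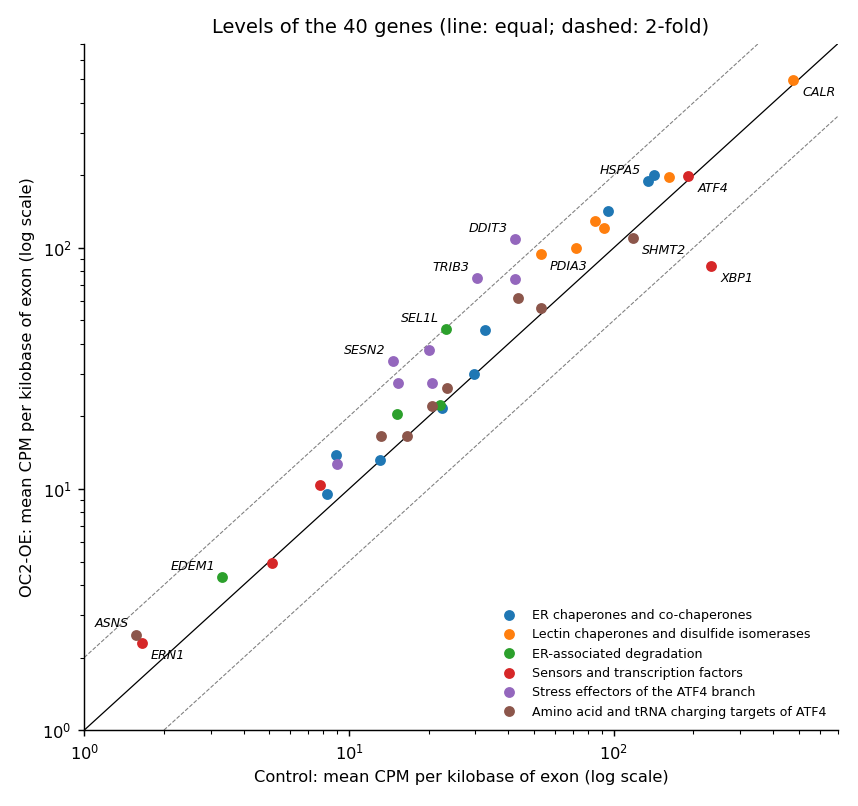
Mean CPM per kilobase of exon of the 40 genes in OC2-OE against control cells, on log axes, coloured by role, with lines for equal levels (solid) and for 2-fold (dashed). XBP1 is the only gene below the lower dashed line, and DDIT3, TRIB3 and SESN2 are the 3 above the upper one.

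The rest of the pathways was read from further lists. Of 51 other genes of ER import, folding and degradation, 24 were higher and 11 lower, with a median log2 fold change of 0.16. These are 47.1% higher and 21.6% lower, against 27.8% and 28.7% of all genes tested. SEC11C, a subunit of the signal peptidase, fell from 2143 ± 68.7 to 668 ± 15.5 CPM (SD, n = 3), which is -1.68. in log2 units ERO1B, the paralogue of ERO1A, rose by 1.05 in log2 units, from 96.8 to 201 CPM, and TXNDC11, an ER thioredoxin-domain protein, had a log2 fold change of -0.80. This wider list thus held genes with large changes in both directions. None of the 19 genes listed here as ATF6/XBP1 targets was called lower, but that contrast depends on which genes each list holds. XBP1, which holds an ERSE and was lower, was listed with the sensors.

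Of 24 other ATF4 targets, 22 could be tested, with 15 higher, 3 lower and a median of 0.51. That is 68.2% higher and 13.6% lower, against 27.8% and 28.7% of all genes tested. STC2, a secreted glycoprotein induced by ER stress, rose from 55.6 ± 3.27 to 193 ± 0.471 CPM (SD, n = 3), which is 1.80. in log2 units GDF15, a stress-induced cytokine, rose by 1.66 in log2 units, from 609 ± 20.8 to 1921 ± 9.37 CPM (SD, n = 3). SLC6A9, a glycine transporter, rose by 1.65. The 3 lower genes were SLC38A2 (-0.75), GPT2 (-0.40) and NUPR1 (-2.39, from 56 counts in control to 11 in OC2-OE libraries), named after their values were seen.

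The kinases of eIF2, its subunits, its exchange factor eIF2B and the phosphatase subunit PPP1R15B made up a list of 12 genes. Of these, 2 were higher (16.7%) and 3 lower (25%), with a median of -0.07. Both shares were under those of all genes tested, 27.8% and 28.7%. EIF2S1, the subunit that is phosphorylated, had a log2 fold change of -0.38, EIF2B4, a subunit of eIF2B, of 0.25, and EIF2AK2, which encodes the kinase PKR, of 0.23. Of 18 other cytosolic tRNA synthetases, 10 were higher (55.6%) and 6 lower (33.3%, near the share of all genes), with a median of 0.13. IARS1, LARS1 and VARS1, for isoleucine, leucine and valine, rose by 0.54, 0.38 and 0.34 on the log2 scale.

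IRE1 also cuts a set of mRNAs directly. Of 5 transcripts known for this, 4 were higher, against 27.8% of all genes tested, and 1 lower, against 28.7%, with a median of 0.69. The count and the median rest in part on low counts, since PDGFRB had 8 counts over the 3 control libraries and 49 over the 3 OC2-OE libraries, and SCARA3 had 34 and 90. HGSNAT, a lysosomal enzyme, rose by 0.69 in log2 units and COL6A1, a collagen chain, by 0.37. BLOC1S1, the transcript most used as a readout of this cleavage, fell from 20.4 ± 1.19 to 16.5 ± 0.445 CPM (SD, n = 3), which is -0.31 in log2 units (SE 0.076, adjusted p = 0.000154 by edgeR). Gene counts do not show cleavage itself.

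**Figure D4:**
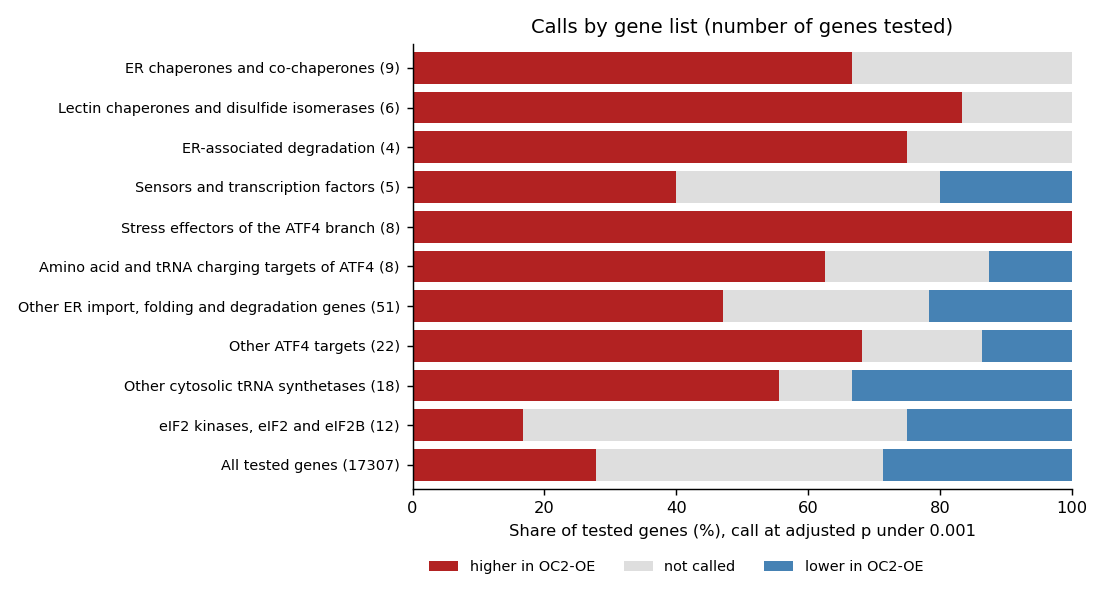
Share of the tested genes of each list that were higher in OC2-OE cells, lower or not called at an adjusted p under 0.001, with the number tested in brackets and all 17307 tested genes at the bottom. The stress effectors of the ATF4 branch were higher in 8 of 8 and the other ATF4 targets in 68.2%. The list of eIF2 kinases, eIF2 and eIF2B, which also holds PPP1R15B, was higher in 16.7%, where 27.8% of all genes were higher.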

How the data were processed

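RNA-Seq libraries of DMS53 cells, 3 control and 3 OC2-OE, were read from 6 files of raw counts, which the authors deposited without normalization. Per the submitters' processing notes and the file headers, read quality was checked with FastQC version 0.11.8, reads were aligned with STAR version 2.7.9a, and fragments were counted by strand on GENCODE release 42 genes (GRCh38) with featureCounts version 1.6.0. Counts were normalized by TMM in edgeR version 4.0.16 (R version 4.3.3), genes were kept by filterByExpr, and 17307 genes were tested by the quasi-likelihood method with robust dispersions, without a replicate term and with Benjamini-Hochberg adjustment over all of them. The threshold of 0.001 is that of the study. CPM are TMM-scaled, and CPM per kilobase divides them by the exon length in the files. Standard errors (SE) were taken as the size of the log2 fold change over the root of its F statistic. The biological coefficient of variation was 2.2%. Replicates differed more than counting noise (chi-square per degree of freedom 1.32 to 2.05 within a group, 92.6 to 104 between groups). Alternatives used DESeq2 version 1.42.0 and limma version 3.58.1, other normalizations and filters, and each library left out. The members and lists were chosen with earlier results of these data known, so no set test was run. All 40 members are named. Of each further list of the pathways, the 3 with the largest change among called genes with a mean log2 CPM of at least 3 are named. The other genes named from these lists (SLC38A2, GPT2, NUPR1, PDGFRB, SCARA3 and PPP1R15B) and the cell markers were named outside this rule.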

Additional observations from a re-analysis of the deposited data

How the results depend on the processing

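Of the 40 genes, 32 kept their direction and their side of the threshold under the 15 other fits, and 8 did not under at least 1, in 27 of 600 values. The cause was not tested. Normalization by library size only and by upper quartile moved the median of all genes by 0.05 and 0.04 on the log2 scale. Each gave 32 higher and 1 lower of the 40, where the main fit gave 29 and 2. The medians were 0.48 and 0.47 for the ATF6/XBP1 targets, 0.18 and 0.17 for the amino acid and tRNA charging genes, and 0.93 and 0.92 for the stress effectors. The alternatives of the last median were chosen after seeing the data. Where every library had to hold 10 counts or more, the amino acid median was 0.13. Requiring a log2 fold change of at least 1 in size as well left 3 higher and 1 lower of the 40 and 2999 genes in all. With each library left out in turn, 28 to 29 of the 40 were higher and 2 lower, and the medians ran from 0.41 to 0.45 for the ATF6/XBP1 targets, from 0.115 to 0.139 for the amino acid genes and from 0.86 to 0.91 for the effectors. DNAJB9, DNAJC3 and PSPH, none of them called, changed sign. With each library left out in turn, DNAJB9 ran from -0.0187 to 0.0525, with -0.0187 reached without control replicate 3, DNAJC3 from -0.00808, reached without control replicate 2, to 0.0281, and PSPH from -0.0369 to 0.0360. PSPH was 0.0486 by library size, 0.0407 by upper quartile, 0.0016 with no filter, and 0.0058 with at least 10 counts per library. The replicate numbers did not pair the libraries (correlation of same-numbered deviations -0.0033, 0.0205 and 0.0146), and with the number as a replicate block, 29 of the 40 were higher and 2 lower, with 9642 genes called and medians of 0.43, 0.13 and 0.88, and no call of a member changed. ASNS had the fewest counts of the 40 genes, at 396 over the control libraries.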
